A study of Danio rerio with 10 samples.

Results

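Genes of intraflagellar transport, the BBSome and the ciliary gate were followed in whole zebrafish larvae with and without a working top2a gene, which codes for the DNA topoisomerase Top2a. The set was chosen by gene name alone. It holds every gene of the count table whose Ensembl name begins with ift or bbs and a number, or with ttc8, ttc21b, traf3ip1, wdr19, wdr35, dync2, cep290, rpgr, ahi1, nphp, arl13, tmem67, cc2d2a or mks1. This gave 40 of the 25911 genes in the table, here called the ciliary transport genes. By role they are 12 genes of transport complex IFT-B, 4 of IFT-A, 1 of the dynein-2 motor, 9 of the BBSome and its assembly, 12 of the transition zone and 2 ARL13 GTPase genes.

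A cilium is a thin projection of the cell surface built around microtubules, and it makes no protein of its own. Intraflagellar transport moves cargo along it: the IFT-B complex goes out to the tip with kinesin-2 motors, and the IFT-A complex comes back with dynein-2. The BBSome is a coat-like complex that rides on these trains and takes membrane proteins out of the cilium, and the transition zone at its base works as a gate. Non-motile cilia occur on most cell types of the larva, and the light-sensing outer segment of a photoreceptor is a modified cilium, while motile cilia beat on kidney tubules, on the olfactory pits and along the ventricles of the brain.

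The 10 libraries came from 3 dpf larvae of the AB background, offspring of crosses between can4 heterozygotes. WT libraries were made from can4+/+ siblings, and the mutant libraries from can4-/- larvae, which are homozygous for a loss-of-function allele of top2a and may hold top2a RNA laid down by the mother. Each larva was genotyped on its own before pooling, 5 pools of 9 larvae were made per genotype, 45 larvae in each group, and no treatment was given. All values below are raw counts per gene that were normalized by TMM in edgeR. A normalized count is a count scaled to the mean effective library size of the 10 pools. Genotypes were compared with edgeR's quasi-likelihood test across 23039 genes that passed a filter on low counts. A gene is called higher or lower in the mutants at a Benjamini-Hochberg adjusted p under 0.05. All 40 ciliary transport genes passed the filter.

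Pools held 29281449 to 45544046 counts in WT and 30098991 to 38106622 in mutants (p = 0.54 by an exact permutation test, two-sided, on 5 and 5 pools). Mitochondrial genes took 3.86% to 4.43% of the counts in WT and 3.93% to 4.60% in mutants, and the first principal component of all pools took 84% of the variance. The mutated gene itself, top2a, stood at 8498 to 9082 normalized counts in WT and at 635 to 688 in 4 mutant pools, while can4-/- replicate 2 held 1358. All 19 genes checked as markers of muscle, skin, heart, lens, liver, pancreas, blood and other organs passed the filter on low counts. Of these, 10 were higher, 4 lower and 5 did not pass the test, beside 36.3% higher and 36.9% lower over all genes. The liver gene fabp10a (log2 fold change -2.21) and the pancreas gene prss1 (-1.83) fell. The lens gene crygm2d1 (1.92) and the muscle gene mylpfa (0.72) rose. WT replicate 1 and can4-/- replicate 2 stood apart from their groups in several of the other genes used below. Leaving both out together gave 11 ciliary transport genes higher and 18 lower, against 10 and 18 with all pools. Whole larvae hold every cell type, so fewer cells of a type and less RNA per cell cannot be told apart in any of these values.

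Most ciliary transport genes changed less than 2-fold. In can4-/- larvae 10 of the 40 passed the test as higher and 18 as lower, and 12 did not pass. Over all 23039 genes tested, 36.3% were higher and 36.9% were lower, together 73.2%, so these genes were called about as often as any gene. No ciliary transport gene rose at least 2-fold, where 8.71% of all genes did, and 3 fell at least 2-fold, where 11.9% of all genes did. The median log2 fold change was -0.15, against 0.0027 over all genes tested, and 21 of the 40 genes lay within 1.2-fold of WT. In 24 of the 40 the ranges of the genotypes did not overlap, where this held for 60.8% of all genes. This split moved with the normalization, and when TMM gave way to library totals 6 were higher and 25 lower, beside 25.7% and 47.7% of all genes. Added up, the 40 genes held 21193 to 22412 normalized counts in WT and 19647 to 20313 in mutants.

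**Figure D1:**
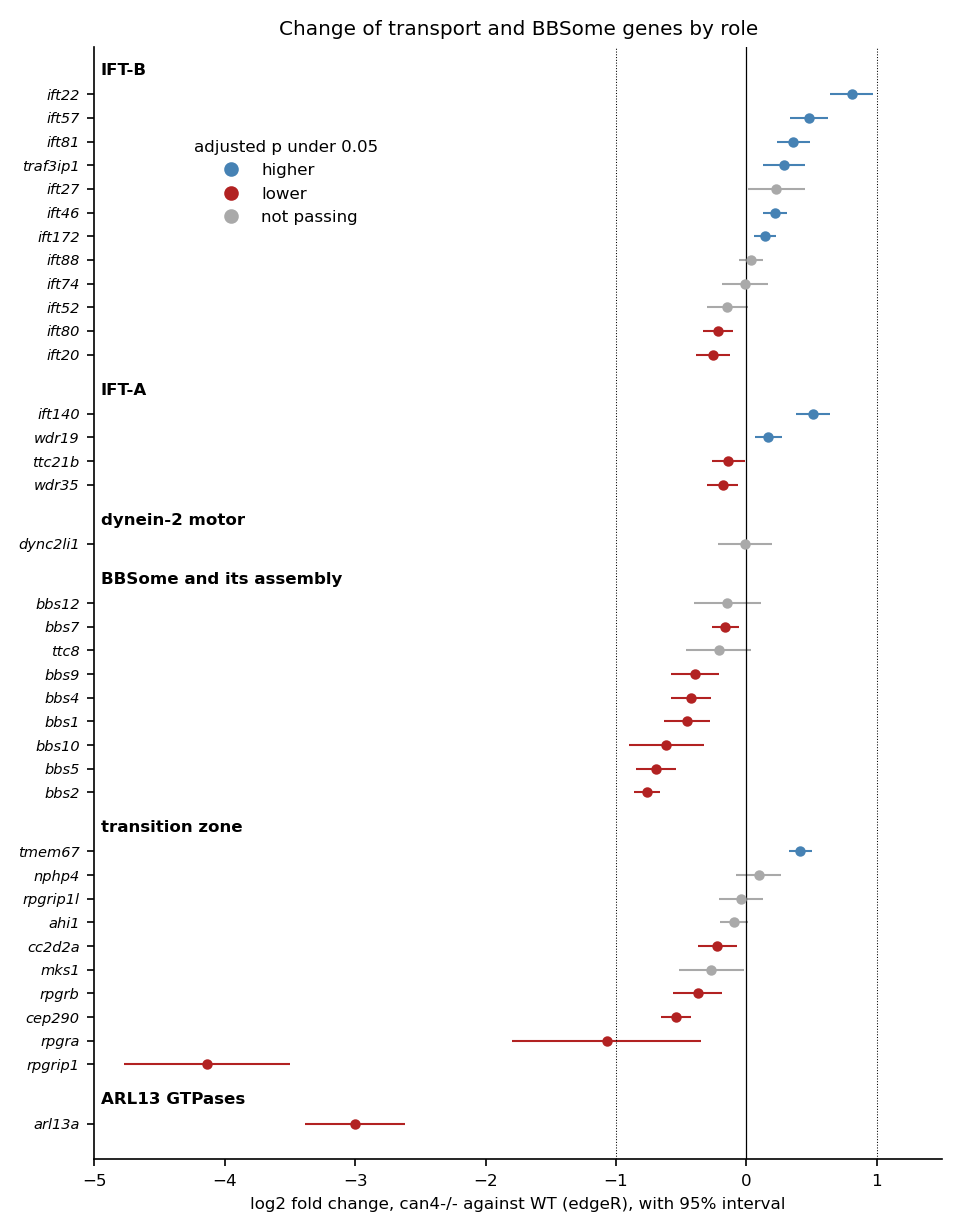
Log2 fold change of single ciliary transport genes in can4-/- against WT larvae, grouped by role, with 95% intervals from edgeR (n = 5 pools per genotype). The dotted lines mark 2-fold changes, which only rpgrip1, arl13a and rpgra passed, and no gene of the BBSome group lies above 0.

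The IFT-B genes went both ways. Of the 12, 6 were higher and 2 lower, and 4 did not pass, beside 36.3% higher and 36.9% lower over all genes, with a median log2 fold change of 0.18. The small GTPase-like subunit gene ift22, on chromosome 5 (30702084 to 30704390, GRCz11), had 179, 160, 192, 197 and 168 normalized counts in WT replicates 1 to 5. In can4-/- replicates 1 to 5 it had 325, 302, 325, 293 and 326. Every mutant pool was above every WT pool, and ift22 rose 1.75-fold (log2 fold change 0.81, standard error 0.08, adjusted p = 4.06e-07), the largest increase among the 40 genes. ift57, whose protein sits at the edge of the complex, rose from 294 ± 17.9 to 409.6 ± 27.0 normalized counts (mean ± SD of 5 pools, as below), or 1.39-fold. ift81 codes for a subunit that binds tubulin as cargo together with IFT74, and it rose from 453 ± 31.6 to 582 ± 25.1, or 1.28-fold. Its partner ift74 did not pass, at a log2 fold change of -0.01 (95% interval -0.19 to 0.17). The other increases, in traf3ip1 (IFT54), ift46 and ift172, were 0.14 to 0.29 on the log2 scale.

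ift172 codes for the large peripheral subunit that takes part in turning the trains round at the ciliary tip, and it had the highest counts of this group. WT pools held 1215, 1180, 1182, 1199.7 and 1146 normalized counts of ift172, and mutant pools 1279, 1331, 1366, 1281 and 1274. The pools did not overlap, but the rise was only 1.103-fold (adjusted p = 0.00432). Its sign turned when library totals replaced TMM, at a log2 fold change of -0.03.

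The 2 IFT-B genes that fell were ift20 and ift80. IFT20 also works at the Golgi, where it helps to sort membrane proteins towards the cilium, and ift20 fell from 587 ± 29.9 to 492 ± 34.4 normalized counts (log2 fold change -0.25, standard error 0.06, adjusted p = 0.00177). IFT80 belongs to the outer part of the complex, and ift80 went from 747 ± 33.3 to 641 ± 37.0 normalized counts. Both had no overlap between genotypes. Besides ift74, the genes that did not pass were the core subunit genes ift52 (-0.15, 95% interval -0.30 to 0.01) and ift88 (0.04, -0.06 to 0.13), and ift27 (0.23, 0.01 to 0.45), a GTPase gene needed for the BBSome to leave the cilium. The count of higher IFT-B genes depended on the scaling: with library totals 3 were higher and 4 lower (25.7% and 47.7% of all genes), and ift22, ift57 and ift81 remained higher.

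The IFT-A genes went both ways, with 2 of 4 higher and 2 lower, beside 36.3% higher and 36.9% lower over all genes. All 4 code for large subunits of the complex that carries cargo back to the cell body and lets membrane proteins enter. ift140, on chromosome 24 (37825634 to 37901493), had 584, 471, 576, 577 and 545 normalized counts in WT and 775, 772, 817, 744 and 819.5 in mutants. No mutant pool came down to the WT range, and ift140 rose 1.43-fold (log2 fold change 0.51, standard error 0.06, adjusted p = 4.39e-06). wdr19 (IFT144) rose from 689 ± 35.3 to 775 ± 21.4, a log2 fold change of 0.17 with TMM and -0.0050 with library totals. wdr35 (IFT121) fell from 825 ± 55.4 to 728 ± 35.6, and its pools overlapped. With library totals ift140 remained higher (log2 fold change 0.34), and wdr35 (-0.35) and ttc21b (-0.31) were lower.

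ttc21b (IFT139) was at the edge of the test. Its log2 fold change was -0.14 (adjusted p = 0.0493), and the call was lost with RLE size factors, DESeq2, limma voom or the stricter filter, and on leaving out WT replicate 2, 3, 4 or 5, can4-/- replicate 1, 2, 3 or 4, or WT replicate 1 and can4-/- replicate 2 together, with adjusted p of 0.0501 to 0.125.

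Of the dynein-2 motor, the name rule took only dync2li1, the light intermediate chain. Its log2 fold change was -0.01 (95% interval -0.22 to 0.20), at 157 ± 11.6 normalized counts in WT and 156 ± 16.6 in mutants. The heavy chain gene carries a capital name in the annotation, DYNC2H1, and so fell outside the rule. Its WT pools held 876, 667, 740.1, 732 and 684 normalized counts and its mutant pools 921, 889, 908, 863 and 873. It rose 1.202-fold (adjusted p = 0.00255), with WT replicate 1 inside the mutant range.

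The called genes of the BBSome group all fell. Of its 9 genes, 7 were lower in can4-/- larvae, 2 did not pass and none was higher, with a median log2 fold change of -0.43. With library totals all 9 were lower, where 47.7% of all genes were. The group holds 7 genes for subunits of the complex (bbs1, bbs2, bbs4, bbs5, bbs7, bbs9 and ttc8, which is BBS8) and 2 for chaperonin-like proteins that help to put it together (bbs10 and bbs12). With 36.9% of all genes lower, and 9 genes that form a complex counted together, the count is a description and was not tested as a set.

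bbs2, for a subunit of the BBSome core, lies on chromosome 18 (17516569 to 17531483). WT pools held 1114, 1036, 1159, 1163 and 1131 normalized counts of bbs2, and mutant pools held 662, 702, 627, 663 and 649. The gap between the genotypes was larger than the spread within either, and bbs2 fell 1.70-fold (log2 fold change -0.76, standard error 0.05, adjusted p = 5.61e-09). bbs5, for a subunit that binds membrane lipids, lies on chromosome 9 (48284606 to 48296469) and had 343, 392, 418, 412 and 386 normalized counts in WT. Its mutant pools held 255, 229, 228, 257 and 237, all below the lowest WT pool, a 1.62-fold fall (log2 fold change -0.69, standard error 0.07, adjusted p = 8.77e-07). bbs10, on chromosome 18 (7375923 to 7382059), had low counts, 77.7, 77.9, 97.2, 103.6 and 81.0 in WT and 62.5, 48.2, 58.1, 63.3 and 54.5 in mutants. It fell 1.53-fold (log2 fold change -0.61, standard error 0.13, adjusted p = 8.54e-04), and its pools did not overlap either.

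The remaining BBSome genes fell less. bbs1, whose protein binds the GTPase ARL6 that recruits the complex to membranes, went from 414 ± 30.4 to 302 ± 33.8 normalized counts, a log2 fold change of -0.46. bbs4, bbs9 and bbs7 had log2 fold changes of -0.43, -0.39 and -0.16, each with no overlap between genotypes. ttc8 (-0.21, 95% interval -0.46 to 0.04) and bbs12 (-0.15, -0.41 to 0.11) did not pass, and the widths of these intervals include falls as large as that of bbs7 and larger. ttc8 is annotated on an unplaced scaffold, from base 11 to 3574, so its model may be cut short and its count incomplete. All 7 calls held on leaving out any one pool.

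Neuron and hair cell markers were mostly lower too, where 36.9% of all genes were lower and 36.3% higher. So were proliferation markers (36 of 43 lower, median log2 fold change -0.61) and photoreceptor markers (65 of 67 lower, median -4.74). These marker lists and the other gene lists below were written with earlier results of these data known. Of 50 neuron markers tested, 46 were lower and 3 higher, with a median log2 fold change of -1.05. The sum over 51 neuron marker genes, tested or not, was 200960 to 213930 normalized counts in WT and 97009 to 108460 in mutants. Of these no marker was at 0 in all mutant pools and 1 was at 0 in some. The neuron markers slc17a7a (-4.70) and snap25b (-1.66) fell, while nefla and neflb (both 0.44) rose. Of 36 hair cell markers, 28 were lower and 1 higher (median -0.80), with sums of 25572 to 27186 and 18979 to 19884 and no marker at 0 in any mutant pool. The hair cell markers s100t (-2.37) and pvalb8 (-2.22) fell. The 1 gene of this list called higher was tecta (0.24), with overlapping pools, and whether its RNA came from hair cells was not tested. The part of neurons, hair cells or other cells in the fall of the BBSome genes was not tested.

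**Figure D2:**
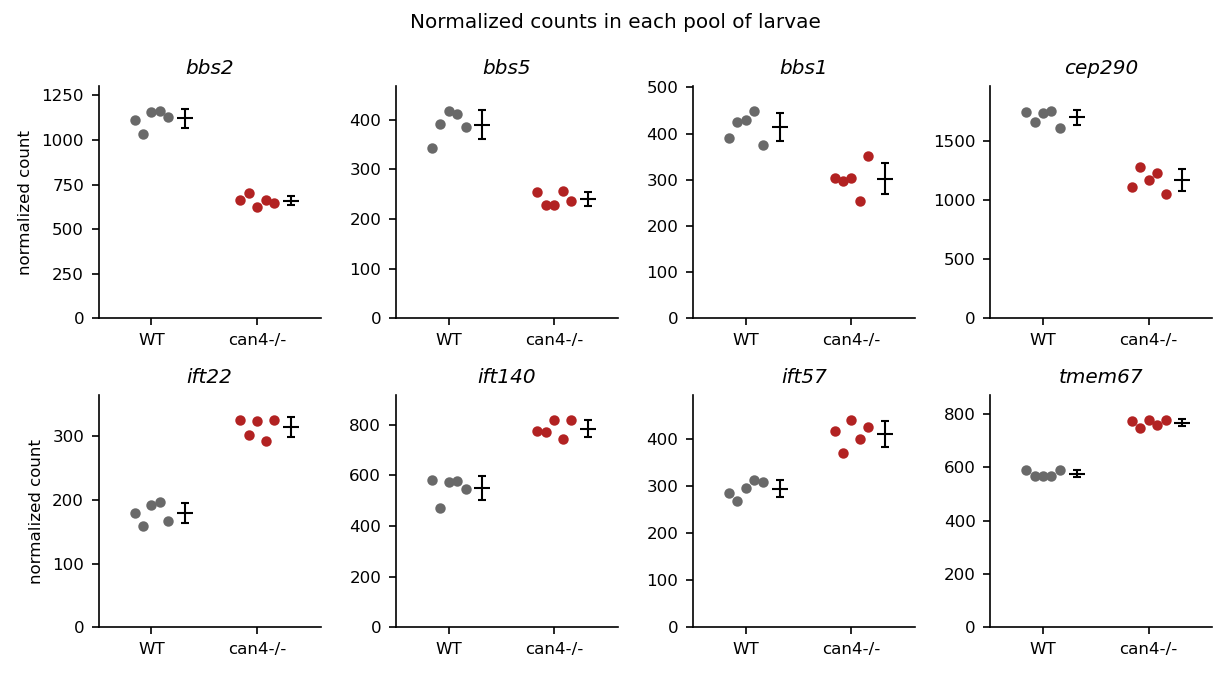
Normalized counts of 4 ciliary transport genes that fell (top) and 4 that rose (bottom) in can4-/- larvae, 1 point per pool of 9 larvae in order of replicate, with the mean and SD (n = 5) beside them. The 8 genes were picked from those called, and in none of them does a mutant pool lie within the WT range. The ranges of the genotypes did not overlap in 24 of all 40 ciliary transport genes and in 60.8% of all genes tested. The axes start at 0.

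Transition zone genes held the largest fall and went both ways otherwise. Of the 12, 5 were lower, 2 higher and 5 did not pass, with a median log2 fold change of -0.16, beside 36.9% of all genes lower and 36.3% higher. With library totals 8 were lower and 2 higher, beside 47.7% and 25.7% of all genes. rpgrip1 codes for a scaffold that anchors RPGR in the connecting cilium of photoreceptors, and its loss in people causes Leber congenital amaurosis. It lies on chromosome 24 (7748751 to 7777389). WT pools held 501, 447, 416, 454 and 407 normalized counts of rpgrip1. Mutant pools held 5.00, 58.8, 18.3, 23.6 and 14.2, so the highest mutant pool, replicate 2, was far below the lowest WT pool. The fall was 17.6-fold (log2 fold change -4.14, standard error 0.30, adjusted p = 2.08e-08), and without can4-/- replicate 2 the log2 fold change was -4.82.

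The 2 genes for RPGR itself, a regulator of small GTPases at the ciliary gate, were also lower. rpgra was barely counted, with 14.4, 17.5, 20.3, 21.5 and 23.6 normalized counts in WT and 2.50, 14.5, 7.53, 13.9 and 5.92 in mutants. WT replicate 1 lay just below the highest mutant pool, so the genotypes overlapped, and the fold change of -1.07 on the log2 scale (95% interval -1.79 to -0.35, adjusted p = 0.0108) is imprecise. rpgrb had far more counts, 317 to 381 in the WT pools and 225 to 314 in the mutant pools, so that they just missed each other (log2 fold change -0.37, standard error 0.09). rpgrip1l, the relative of rpgrip1 that serves the transition zone of cilia in general, did not pass, at 246 ± 12.6 and 239 ± 21.9 normalized counts (log2 fold change -0.04, 95% interval -0.21 to 0.13).

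cep290 codes for the large protein that links the membrane to the microtubules of the transition zone, and it had the highest counts of the group. It lies on chromosome 25 (17934426 to 18002937). WT pools held 1751, 1665, 1737, 1759 and 1612 normalized counts of cep290 and mutant pools 1111, 1285, 1171, 1236 and 1056. No mutant pool reached the WT range, and cep290 fell 1.45-fold (log2 fold change -0.54, standard error 0.05, adjusted p = 6.53e-07). cc2d2a, for a partner of CEP290 in the same gate, went from 480.0 ± 24.9 to 411 ± 39.2, a log2 fold change of -0.22, with overlapping pools.

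tmem67 went the other way. It codes for the membrane protein meckelin of the gate and lies on chromosome 16 (27564270 to 27581488). WT pools held 588, 566, 568, 567 and 590.3 normalized counts of tmem67 and mutant pools 774, 748, 776, 758 and 777. The pools lay close together within each genotype and far apart between them, a 1.33-fold rise (log2 fold change 0.41, standard error 0.04, adjusted p = 5.86e-07).

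The transition zone genes that did not pass included rpgrip1l, mks1 (-0.27, 95% interval -0.52 to -0.02, adjusted p = 0.0516), ahi1 (-0.10, -0.20 to 0.01) and nphp4 (0.09, -0.08 to 0.27). mks1 was close to the threshold and rested on single pools. WT replicate 1 held 772 normalized counts of mks1 and the other WT pools 479 to 562, and the adjusted p was 0.0226 to 0.0457 without WT replicate 4, WT replicate 5 or can4-/- replicate 2, 0.156 without WT replicate 1, and 0.0321 without WT replicate 1 and can4-/- replicate 2 together (log2 fold change -0.19).

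arl13a showed the second large fall. It codes for a small GTPase of the ARL13 family and lies on chromosome 14 (41293110 to 41308561). It had 382, 336, 353, 311 and 283 normalized counts in WT and 41.2, 55.9, 54.8, 28.9 and 24.9 in mutants. All mutant pools were far below the WT range, an 8.01-fold fall (log2 fold change -3.00, standard error 0.18, adjusted p = 3.14e-09).

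Photoreceptor markers fell with rpgrip1 and arl13a. Of 67 markers tested, 65 were lower and 1 higher, with a median log2 fold change of -4.74. The marker list was written with earlier results of these data known. The opsin genes opn1mw1 (-11.29) and opn1sw1 (-9.32) came down to 0 to 15.4 and 0 to 99.3 normalized counts in the mutant pools. WT replicates 1 to 5 held 119160, 161410, 179510, 180000 and 162830 normalized counts summed over 69 markers, and mutant replicates 1 to 5 held 11786, 13729, 12613, 11602 and 11205. No marker was at 0 in all mutant pools, and 8 were at 0 in some. Among WT pools, replicate 1 was lowest in the marker sum and highest in rpgrip1 and arl13a. Among mutant pools, replicate 2 was highest in all 3. From highest to lowest, mutant replicates ran 2, 3, 1, 4 and 5 in both arl13a and the marker sum, and 2, 4, 3, 5 and 1 in rpgrip1. The part of the photoreceptors in the fall of rpgrip1 and arl13a was not tested. Without rpgrip1, arl13a and rpgra, the other 37 genes lay between -0.76 and 0.81 on the log2 scale, with a median of -0.14.

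**Figure D3:**
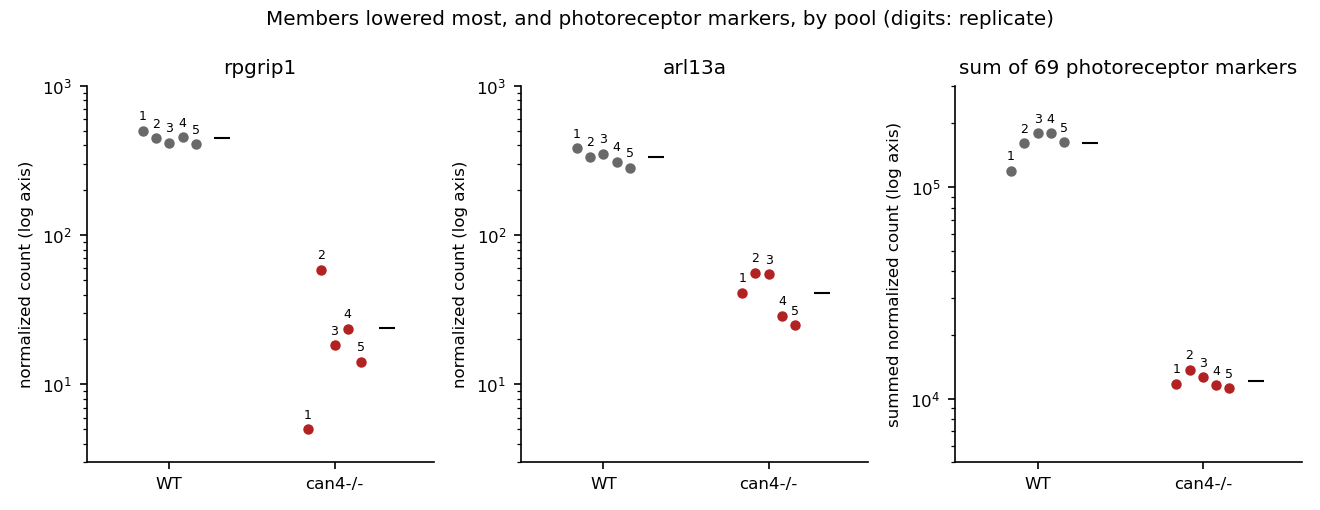
Normalized counts of rpgrip1 and arl13a and the sum of 69 photoreceptor markers in each pool, on log axes, with digits for the replicate and a bar for the mean (n = 5 per genotype). WT replicate 1 is the lowest WT pool in the marker sum (119160) and the highest in rpgrip1 (501) and arl13a (382). The mutant pools are in the same order in arl13a and the marker sum, and the genotypes are far apart in all 3 panels.

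Other genes of the same machinery, which the name rule did not take, were called lower more often than higher. Of 28 other genes of transport and the BBSome (motor subunits, further IFT subunits, ARL3 and ARL6 genes and the carriers of lipid-modified proteins), 2 were higher, 13 lower and 13 did not pass, with a median log2 fold change of -0.17. The largest falls at a mean of at least 100 normalized counts were in unc119b and unc119a, which code for carriers that bring myristoylated proteins into the cilium. unc119b had 1546, 1485, 1689.8, 1693 and 1521 normalized counts in WT and 249.97, 377, 290.3, 287 and 264 in mutants (log2 fold change -2.43, standard error 0.09). unc119a stood at -1.50 (standard error 0.14) on the log2 scale, and no gene of this list at that level was called higher. With library totals 2 of the 28 were higher and 21 lower. For this list and those below, the shares over all genes were 36.3% higher and 36.9% lower with TMM. With library totals they were 25.7% and 47.7%. A further IFT-B gene is annotated as flr, the homolog of human TTC30B (IFT70), and its WT pools held 680 to 716 and its mutant pools 753 to 895 normalized counts (log2 fold change 0.20, adjusted p = 0.00243).

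Of 29 other transition zone and ciliopathy genes, 7 were higher, 8 lower and 14 did not pass (with library totals, 5 and 12). tmem237a, for a membrane protein of the gate, had 236, 248, 283, 241 and 226 normalized counts in WT and 5.00, 15.4, 12.9, 6.43 and 3.55 in mutants. Its log2 fold change of -4.77 (standard error 0.22) was of the size of that of rpgrip1, while its paralog tmem237b was at -0.84 (standard error 0.08). cspp1a and nek8 had the largest increases, 1.09 (standard error 0.09) and 0.97 (standard error 0.10). Of 33 genes of the basal body and its distal appendages, on which cilia are built, 9 were higher, 18 lower and 6 did not pass (median -0.18, and 6 higher and 23 lower with library totals). ehd3 (-0.70) and plk4 (-0.60), the kinase that starts centriole duplication, had the largest falls, and cep152 (0.76) and the membrane-shaping gene ehd1a (1.21) the largest rises.

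Genes of motile cilia went up almost together. Of 97 tested, 93 were higher, 2 lower and 2 did not pass, with a median log2 fold change of 1.81, against 0.18 for the 12 IFT-B genes and -0.43 for the BBSome group. The motile cilia list was written with earlier results of these data known. daw1, which takes part in the assembly of outer dynein arms, rose from 72.7 ± 9.63 to 528 ± 31.3 normalized counts and cfap126 from 40.2 ± 7.03 to 286 ± 19.4, while the dynein heavy chain gene dnah9l fell from 168 ± 18.7 to 113 ± 18.0. The sum over 100 motile cilia genes was 10209 to 10819 normalized counts in WT and 28396 to 31397 in mutants, with no gene at 0 in any mutant pool. The part of cells with motile cilia in the rise of ift22, ift57, ift81 and ift140 was not tested.

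**Figure D4:**
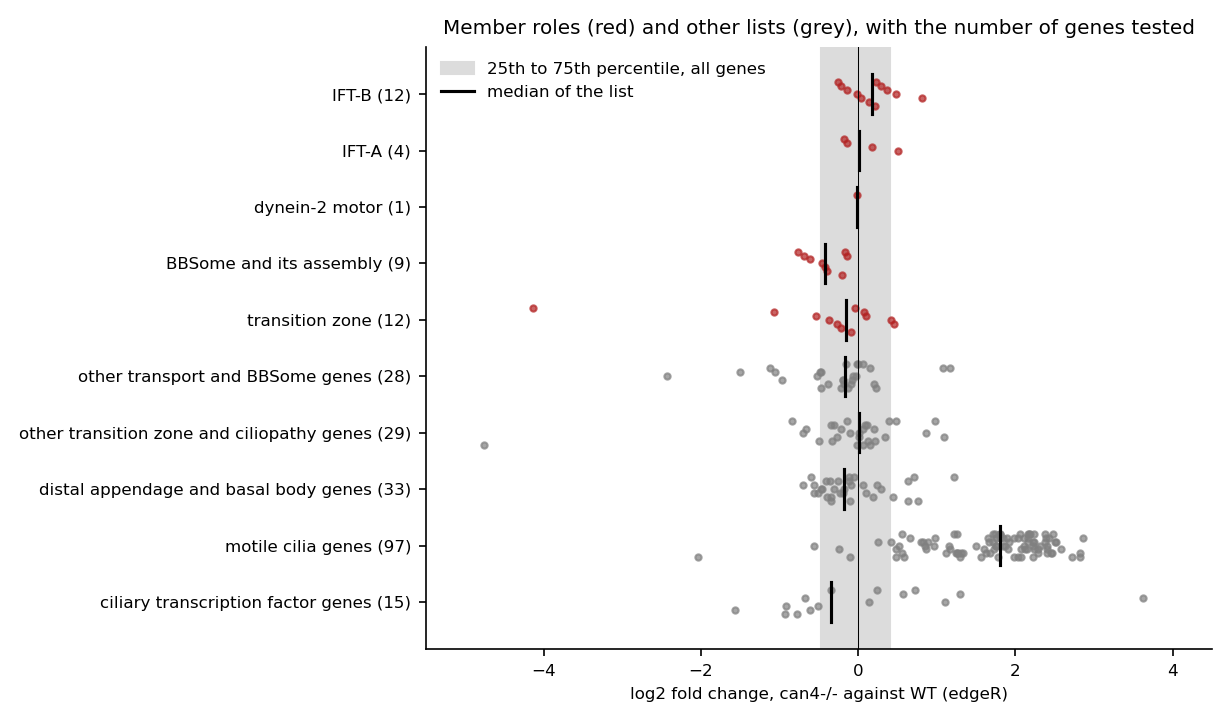
Log2 fold changes in can4-/- against WT of single genes, by role for the ciliary transport genes (red, without the ARL13 family) and for other ciliary lists (grey), with the number tested in parentheses, a black bar at the median and a grey band from the 25th to the 75th percentile of all genes tested (-0.48 to 0.41). The median of the motile cilia list (1.81) lies to the right of the band, while single genes of that list reach down to -2.04. The BBSome group lies to the left of 0, with its median (-0.43) inside the band.

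The ciliary transport genes shared little in position or size. They lie on 18 chromosomes and 2 unplaced scaffolds, with 5 of them on chromosome 9, and span 2.31 to 296.5 kb (median 20.7 kb). Across the 40 genes, which share the same 10 libraries, Spearman's correlation of gene span with log2 fold change was 0.11, and over all 23039 genes it was -0.10. Of the 40, 15 overlap another annotated gene and 13 of these a gene on the other strand, among them ift20, ift172, ift140, bbs4, cep290 and tmem67. The library kit keeps the strand, but the sources used here do not give the strand setting of the counting, and reads of such neighbors may be included.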

How the data were processed

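The authors aligned reads of ribosomal RNA-depleted, stranded libraries with STAR 2.7.0f to GRCz11, per the submitters' processing notes, and deposited raw counts per gene as whole numbers, which were not normalized. The sources used here do not name the program that counted reads. Gene names, start, end and strand came from the Ensembl release 96 annotation deposited by the authors. The authors' normalized values, rlog values and DESeq2 1.24.0 results (log2 fold changes and p-values) were not used here.

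Counts were analysed anew in R 4.3.3 with edgeR 4.0.16. Genes were kept by filterByExpr (minimum count 10, minimum total 15), scaled by TMM and tested by quasi-likelihood F-tests of a genotype term alone, with adjustment over all 23039 genes. The biological coefficient of variation was 9.59%. A standard error is the size of the log2 fold change divided by the square root of F, and intervals are 95%. Between the 20 pairs of pools of a genotype, chi-square divided by its degrees of freedom came to 4.46 to 24.2, so every pool counted as 1 replicate.

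A few genes of the set enter the counts and medians but are not described singly here. The genes and the lists were chosen with earlier results of these data known. Described in full are, per role, up to 3 called genes with the largest rise and 3 with the largest fall, those changed at least 2-fold and the gene with the highest counts. Of each other list, up to 2 rises and 2 falls at a mean of at least 100 normalized counts were named, without symbols that belong to several genes. Alternatives were RLE size factors, library totals, DESeq2 1.42.0, voom in limma 3.58.1, no filter, a stricter filter (50 counts or more in all libraries of 1 genotype), the replicate number as a block, leaving out each pool in turn, and leaving out WT replicate 1 with can4-/- replicate 2.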

Additional observations from a re-analysis of the deposited data

Results flagged for a closer look

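Within 2 of 80 groups of 5 pools, formed by the 40 ciliary transport genes and the 2 genotypes, 1 pool lay far from the other 4 (a gap over 0.71 of the whole range), where chance gives about 4. can4-/- replicate 3 had 709.7 normalized counts of bbs7, against 774 to 798.7 in the other mutant pools. WT replicate 1 had 772.4 normalized counts of mks1, against 478.9 to 562.3 in the other WT pools.

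Among the other named genes this held in 9 of 84 groups, where chance gives about 4.2, and 8 of the 9 were WT replicate 1 or can4-/- replicate 2. WT replicate 1 had 9082 normalized counts of top2a (the others 8498 to 8646), 411.9 of tmem237b (342.9 to 355.5), 11130 of the proliferation marker hmgb2b (9102 to 9563) and 7710 of the green-cone opsin gene opn1mw1 (13700 to 15140). can4-/- replicate 2 had 1358 normalized counts of top2a (634.7 to 688.1), 1880 of foxj1a (2094 to 2140), 99.26 of the UV-cone opsin gene opn1sw1 (0 to 5.36) and 1024 of the proliferation marker nusap1 (768.7 to 841.2). can4-/- replicate 4 had 219.8 of e2f5 (232.3 to 236.1).

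Of 24 groups of list sums 3 had such a pool, where chance gives about 1.2. The proliferation marker sum was 81030 in can4-/- replicate 2 (67460 to 71330 in the others), the sum of organ markers 1091000 in WT replicate 1 (964200 to 980500), and the sum of olfactory sensory neuron markers 1424 in can4-/- replicate 3 (1271 to 1309).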

How the results depend on the processing

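Among the 40 genes, library totals in place of TMM left 6 higher and 25 lower, against 10 and 18 with TMM. Over all genes the shares were 25.7% higher and 47.7% lower with library totals, and 36.3% and 36.9% with TMM. Library totals moved the median of all genes by -0.175 on the log2 scale. Relative to that shift the direction of the listed genes is that of the TMM values. On this scale ift88 (-0.14), ift172 (-0.033), wdr19 (-0.0050) and nphp4 (-0.082) had log2 fold changes below 0. Counting only changes of at least 2-fold left 0 higher and 3 lower with TMM, beside 8.71% and 11.9% of all genes. The other alternatives gave 10 or 11 higher and 16 to 19 lower. Without WT replicate 1 and can4-/- replicate 2 together, ift74 (0.042), dync2li1 (0.0059) and rpgrip1l (0.016) were above 0. Leaving out 1 pool at a time, 10 to 11 were higher and 17 to 19 lower, and log2 fold changes ranged from -0.049 to 0.060 for ift74 and from -0.051 to 0.049 for dync2li1. ift27, which did not pass with all pools, passed without WT replicate 1, can4-/- replicate 1 or can4-/- replicate 2 (adjusted p = 0.0288, 0.0319 and 0.0427). It also passed without WT replicate 1 and can4-/- replicate 2 together (0.0223) and with the stricter filter (0.0432). ift52 passed without WT replicate 2 (0.0499) or can4-/- replicate 2 (0.0253). With library totals ift52 was lower too (log2 fold change -0.32, adjusted p = 0.00163). rpgra had too few counts for the stricter filter and has no value there. Same-numbered pools did not vary together (correlations of -0.0223 to 0.033), so the numbers do not pair them. With a replicate block 10 were higher and 19 lower, with mks1 (-0.25, adjusted p = 0.0478) the 1 call that changed. mks1 also passed with DESeq2 (adjusted p = 0.0471). TMM scaling factors were 1.04 to 1.07 in WT pools and 0.93 to 0.96 in mutant pools. The 20 genes with the most counts in a pool took 14.06% to 14.81% of the counts in WT and 16.93% to 17.69% in mutants. The causes of the changes between settings were not tested. Low counts limited the precision of rpgra.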

Other observations

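Of 15 genes for transcription factors of ciliary programs, 6 were higher, 8 lower and 1 did not pass. foxj1a, the main regulator of motile cilia genes, had 214, 140.1, 129, 149.7 and 207 normalized counts in WT and 2094, 1880, 2116, 2096 and 2140.0 in mutants, so the genotypes were far apart (log2 fold change 3.63, standard error 0.12). e2f5, a cell cycle factor also needed for multiciliated cells, rose by 1.29, while rfx1a, of the RFX family that binds the X-box of ciliary genes, had a log2 fold change of -0.94 and myb of -1.57.

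Of 43 proliferation markers 36 were lower and 1 was higher (ccne1, 0.41), with nusap1 at -1.26 and hmgb2b at -1.11. Of 10 olfactory sensory neuron markers 4 were lower and 6 did not pass (8 lower with library totals), with ompa at -3.85 and gnal at -0.42. Kidney tubule and duct markers went both ways, with 7 of 26 higher and 10 lower (6 and 15 with library totals). Among those at a mean of at least 100 normalized counts, slc4a4a (-1.35) and atp1a1a.4 (-1.25) had the largest falls. The largest rises at that level were in wt1a (0.67) and pvalb1 (0.96). pvalb1 is also a muscle gene, with a mean of 161645 normalized counts in WT. Neither rise is read here as a change of tubule or duct cells. Below that level, 3 markers rose at least 2-fold.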
